A study of Mus musculus with 2 samples.

Results

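Mir652 is a microRNA gene of the mouse X chromosome, and it was among the most abundant microRNA genes counted in the heart at embryonic day 10.5. It was taken as the 1 row, of 1973 listed microRNA genes, whose Ensembl identifier (ENSMUSG00000076011.1) is annotated as Mir652. It was chosen by its own-strand count, which is high in both libraries, so its level and rank are given as a description and were not tested. The study sequenced small RNA (microRNA-seq) from hearts of healthy B6NCrl mouse embryos, with no treatment or mutation named in the labels. Replicate 2 was made from a pool of 51 embryos and replicate 1 from a pool of 69 embryos, of both sexes mixed, and the labels call the pools biological replicates. There is 1 group and no control, so genes were compared within the heart and the 2 libraries with each other.

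A microRNA gene is transcribed into a hairpin, from which a short RNA is cut from 1 or both arms and loaded into a silencing complex. The complex finds messenger RNAs mainly through the seed, bases 2 to 8 of the short RNA. Mir652 lies within Tmem164, a gene for a membrane protein with an acyltransferase role in ether lipid synthesis that is known from human cells. In adult mouse heart, miR-652 is known from inhibition experiments in pressure overload, in which the Notch ligand Jagged1 was studied as its target.

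The hairpin and both arms are shown because the counts are per hairpin and cannot tell the arms apart. The hairpin is 98 bases long, at chrX:142739000-142739097 on the plus strand (RefSeq, GRCm38.p6, the same assembly as mm10). Capitals mark the 5p arm (bases 21 to 44) and the 3p arm (bases 61 to 81) in the hairpin, and the seed in each mature sequence.
Mir652 hairpin: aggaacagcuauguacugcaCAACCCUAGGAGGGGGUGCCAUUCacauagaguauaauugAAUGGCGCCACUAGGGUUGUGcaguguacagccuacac
mmu-miR-652-5p: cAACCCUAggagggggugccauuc
mmu-miR-652-3p: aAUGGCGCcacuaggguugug

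The arms lie 16 bases apart, and 9 bases in a row of the 3p arm (cuaggguug) are the exact complement of the 5p arm. In the fold predicted by RNAfold, 20 of 21 bases of the 3p arm and 19 of 24 bases of the 5p arm were paired, all 7 seed bases of each arm among them. The predicted folding energy was -49.0 kcal per mol, or -0.5 per base, against a median of -0.379 per base over the 1894 listed genes with a sequence. A lower energy per base was predicted for 13.5% of them. These are features of the sequence and not measurements of the libraries.

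Neither seed of Mir652 was found in another gene of the RefSeq table, which holds mature sequences of 1058 mouse genes. Bases 2 to 7 of each arm were likewise in no other gene of it. Having no seed in common with another gene is usual there, since it held for 57.0% of these genes. The table is not complete, as Mirlet7a-2 has no seed in common there with the other let-7 genes. The 57.0% may therefore be too high, and mature sequences missing from the table were not searched. The contrast with the more abundant X-linked genes is in the sequences. Mir322 has the seed AGCAGCA together with Mir15a, Mir15b, Mir16-1, Mir195a and others, 11 genes in all. Mir351 has the seed CCCUGAG in common with the Mir125 genes, 6 genes in all. One arm of each is shown with its seed in capitals.
mmu-miR-322-5p: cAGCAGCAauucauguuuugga
mmu-miR-351-5p: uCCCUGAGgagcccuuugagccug

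The hairpin of Mir652 had no near-identical copy. Its longest stretch in common with any other annotated mouse microRNA, on either strand, was 14 bases, against a median of 19 bases over listed genes. A stretch of 20 bases or more, anywhere in the hairpin, was shared by 929 of 1894 listed genes and is called a possible copy. That feature matters to the counts because reads mapped to several places (23.5% of reads in replicate 2 and 23.3% in replicate 1) were not given to any gene.

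Mir652 lies in an intron of Tmem164 and on the strand of its host. Tmem164 spans chromosome X from 142681406 to 142843494 (mm10), which is 162 kb, and Mir652 begins 57.6 kb after the start of the host. The hairpin falls in an intron of 7 of 9 annotated Tmem164 transcripts and overlaps 0 of its exons. The intron was 69085 to 89410 bases long, depending on the transcript. It is the 1 listed microRNA gene within Tmem164. There were 0 other listed genes within 50 kb, and the nearest was Mir680-2 at a distance of 1.56 Mb, with 0 counts in each library.

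Mir652 had 61119 own-strand counts in replicate 2 and 46108 in replicate 1. All listed genes together had 4789068 own-strand counts in replicate 2 and 4163656 in replicate 1. In CPM, counts per 1000000 of these, its level was 12762 in replicate 2 (95% exact Clopper-Pearson interval 12662 to 12863) and 11074 in replicate 1 (10974 to 11175). The level was therefore somewhat higher in replicate 2, and the intervals of the libraries did not overlap. The mean was 11918 ± 1194 CPM (SD, n = 2). Such intervals hold counting error alone, because they take reads as independent and hold no variation between pools. Sequenced copies of 1 molecule cannot be recognised in these libraries, so the intervals may be too narrow even for counting error. In whole hearts, a larger number of cells with a microRNA and more of it per cell cannot be told apart.

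More than 1 in 100 of the gene counts came from this 1 gene, with 1.28% in replicate 2 (1.27 to 1.29) and 1.11% in replicate 1 (1.1 to 1.12). Of all reads in the tables, including unmapped reads and reads outside genes, it held 0.556% in replicate 2 and 0.459% in replicate 1. Its level was 115 times the median of the 381 genes with at least 10 counts in both libraries in replicate 2, and 79.8 times that median in replicate 1. No read was counted on the strand opposite to Mir652 in either library, which allows up to 0.626 CPM in replicate 2 and 0.721 CPM in replicate 1. A count of 0 on the opposite strand in both libraries was shared by 18 of the 20 most abundant genes.

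**Figure D1:**
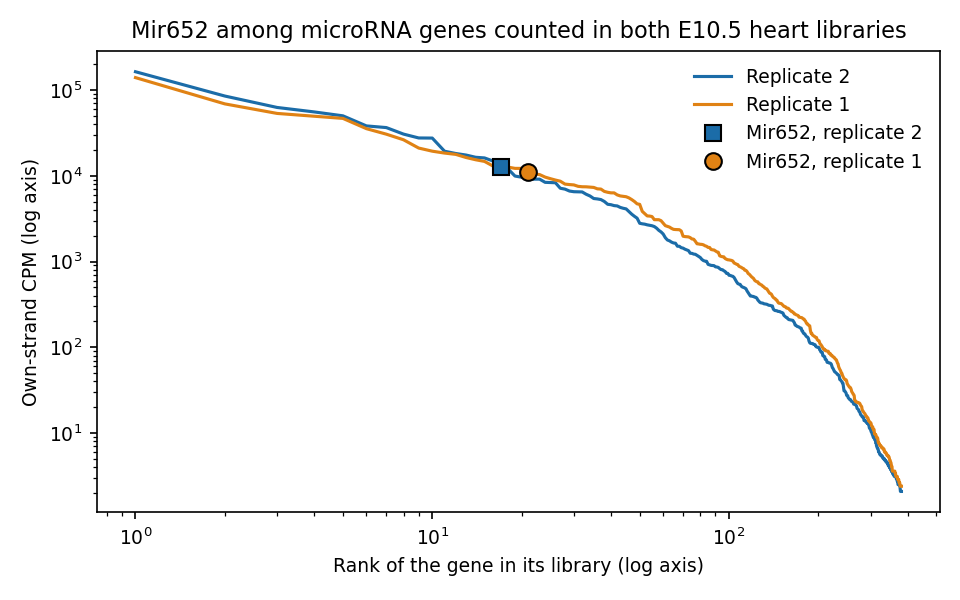
Own-strand CPM of each gene with at least 10 counts in both libraries, against its rank in the library (both axes logarithmic). Lines are the libraries and the marked points are Mir652, which ranked 17 in replicate 2 and 21 in replicate 1.

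Mir652 ranked 17 of 1973 listed genes in replicate 2, 21 in replicate 1 and 18 by mean CPM. In both libraries 16 genes were above it and 1952 below it. The order turned between the libraries for 4 genes, Mir20a, Mir411, Mir487b and Mir431. Each of these was above Mir652 in replicate 1 and below it in replicate 2, so Mir652 cannot be ranked against them at n = 2. Small RNA reads cover a whole arm whatever the length of the hairpin, so counts were not divided by length. Divided by hairpin length, a setting added after the data were seen, its rank by mean was 21.

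The genes next above Mir652 in mean CPM were Mir208a, Mir30a and Mir20a. Mir208a lies in an intron of Myh6, the gene for a heart muscle myosin, and had 17434 CPM in replicate 2 and 12836 in replicate 1. Mir652 reached 0.732 of the Mir208a level in replicate 2 (95% exact interval 0.724 to 0.74) and 0.863 of it in replicate 1 (0.852 to 0.874). It therefore stayed below the heart muscle microRNA in both libraries.

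Mir30a, of the Mir30 family, had 14881 CPM in replicate 2 and 12194 in replicate 1, and Mir652 reached 0.858 and 0.908 of it in replicates 2 and 1. Mir20a, of the Mir17hg cluster that is known from proliferating cells, had 9618 CPM in replicate 2 and 15370 in replicate 1. Mir652 was thus 1.33 times as high as Mir20a in replicate 2 (1.31 to 1.34) but only 0.721 times as high in replicate 1 (0.712 to 0.729). The spread of Mir20a between the pools, 12494 ± 4067 CPM, was larger than its distance from Mir652.

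The genes next below were Mir411, Mir23b and Mir487b. Mir411 averaged 11915 ± 3936 CPM, which is level with the mean of Mir652, but had 9132 CPM in replicate 2 and 14698 in replicate 1. Mir487b had 8346 CPM in replicate 2 and 13005 in replicate 1, and so fell on either side of Mir652 as well. Both genes belong to the imprinted Dlk1-Dio3 locus of chromosome 12. A possible copy was found for Mir411 (Mir758) and for Mir487b (Mir376b). Mir411 and Mir487b may therefore be undercounted, and their place relative to Mir652 is uncertain for that reason as well.

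Mir23b was the listed gene whose level was most like that of Mir652. It had 12019 CPM in replicate 2 and 10325 in replicate 1. The distance between the genes in log2(CPM + 1), taken over both libraries, was 0.133, the smallest of all listed genes. Mir652 was 1.06 times as high as Mir23b in replicate 2 (1.05 to 1.07) and 1.07 times as high in replicate 1 (1.06 to 1.09). Mir23b shares a stretch of 20 bases or more with Mir23a, so its count may be a lower limit and the order of the pair is uncertain. Next by the same measure were Mir30a at 0.262, Mir208a at 0.498, Mir23a at 0.544 and Mir20a at 0.625. With 2 libraries this measure reflects level more than any pattern.

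**Figure D2:**
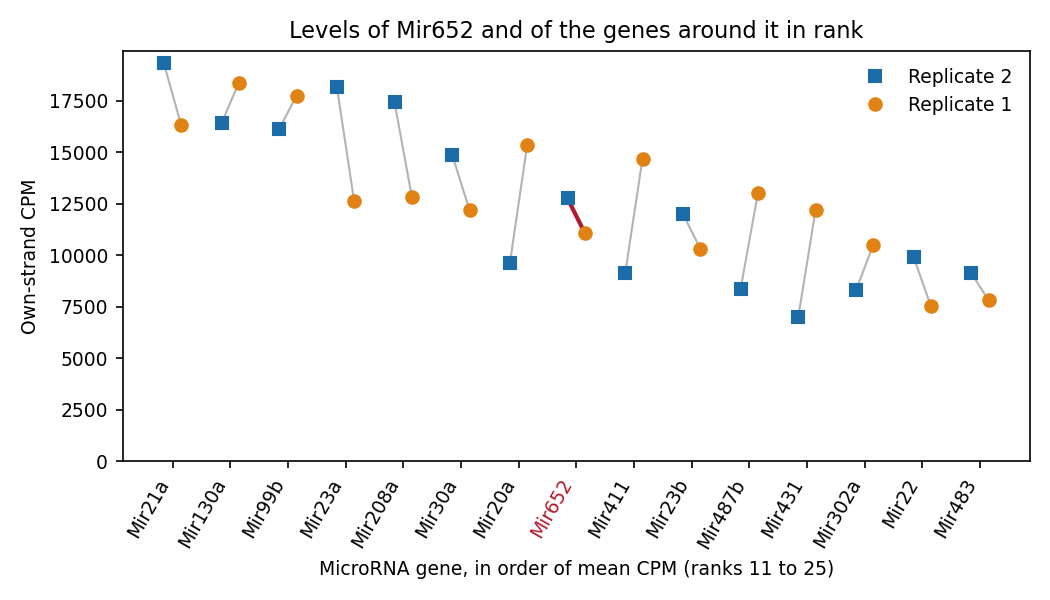
Own-strand CPM of the genes ranked 11 to 25 by mean CPM in replicate 2 (squares) and replicate 1 (circles), joined by a line for each gene. Mir652 (red) had 12762 CPM in replicate 2 and 11074 in replicate 1, while Mir20a, Mir411 and Mir487b beside it were lower in replicate 2 than in replicate 1.

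How steady Mir652 was between the libraries depended on the scaling. In CPM, which scales by total gene counts, its coefficient of variation was 10.02%, against a median of 16.6% over the 79 genes with at least 1000 CPM in both, and 24 of these genes had a lower coefficient. With library sizes scaled by TMM, a setting added after the data were seen, it was 23.3%, against a median of 15.5%, and 52 genes had a lower coefficient. In CPM the 20 most abundant genes ran from 0.132% for Mir26b to 57.6% for Mir208b. A coefficient from 2 libraries is imprecise, and these values are a description.

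Replicate 2 held more Mir652 than replicate 1 under both scalings, by an amount that depended on the scaling. After scaling by TMM, the ratio of replicate 2 to replicate 1 was 1.39-fold (95% exact interval 1.38 to 1.41), a log2 ratio of 0.48. As Mir652 was chosen on these counts, the ratio is a description and no p-value is given for it. In the exact two-sided binomial test of the libraries, with Benjamini-Hochberg adjustment over 424 tested genes, 61.6% of genes passed, 30.4% as higher and 31.1% as lower in replicate 2. The test compares libraries and not conditions, and at a depth like that of Mir652 it passes small differences. Scaled by total gene counts, the ratio was 1.15-fold (1.14 to 1.17), a log2 ratio of 0.20.

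The size of this difference was near the middle of all tested genes, which include genes of low count. The median absolute log2 ratio over all tested genes was 0.47, and 48.3% of tested genes had a larger absolute ratio than Mir652. The same median was lower, at 0.32, over genes of at least 1000 CPM in both libraries. Over the 20 most abundant genes it was 0.49. The direction was also the usual direction of the 20 most abundant genes, Mir652 among them, of which 17 were higher in replicate 2. Their median log2 ratio was 0.49, against -0.01 over all tested genes. Of the 79 genes of at least 1000 CPM in both libraries, 42 were higher and 32 lower, with a median of 0.07. Scaling by total counts shifts the median of tested genes by -0.27 on the log2 scale. With it 14 of the 20 were higher and 5 lower, and 23 of the 79 were higher and 51 lower. Among the other 78 genes of at least 1000 CPM in both libraries, 8 had a log2 ratio within 0.1 of that of Mir652. The nearest were Mir501 at 0.48, Mir23b at 0.49, Mir503 at 0.46, Mir483 at 0.50 and Mir335 at 0.50. Mir501 and Mir503 are X-linked, and Mir483 and Mir335 lie within the imprinted genes Igf2 and Mest.

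**Figure D3:**
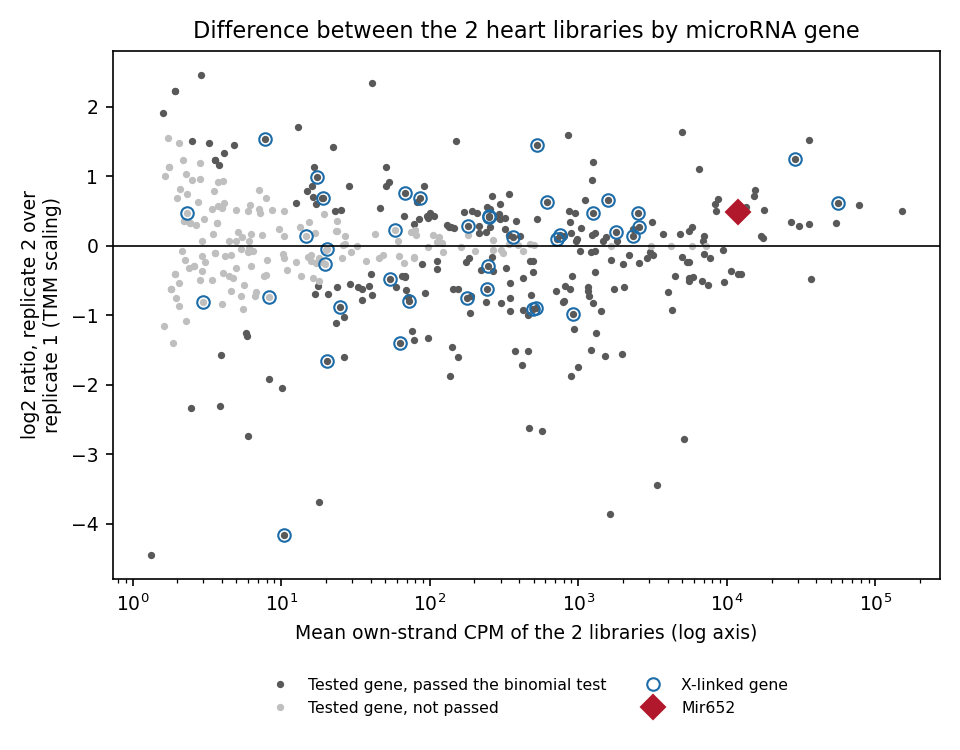
Log2 ratio of replicate 2 over replicate 1 after TMM scaling, against mean CPM (log axis), for the 424 tested genes. Dark points passed the exact binomial test, open circles are X-linked genes, and Mir652 (diamond) sits at 0.48. Of the 20 most abundant genes, 17 lie above 0.

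The pools also differed in marker microRNAs of heart muscle and of other tissues. The heart muscle markers Mir208a, Mir208b, Mir499, Mir1a-1 and Mir133a-1 together held 6.91% of counts in replicate 2 and 3.47% in replicate 1. None of the 5 was at 0, although Mir1a-1 and Mir133a-1 had 3 to 17 counts per library and have possible copies. Most of the difference was in Mir208b, with 49967 CPM in replicate 2 and 21037 in replicate 1. Mir208a, Mir499 and Mir133a-1 were also higher in replicate 2, while Mir1a-1 was lower, at 3.13 CPM against 4.08 in replicate 1. The Hox-cluster markers Mir10a, Mir10b and Mir196b held 0.193% in replicate 2 and 1.7% in replicate 1. The 5 epithelial markers held 0.133% in replicate 2 and 0.51% in replicate 1, and the liver marker Mir122 held 0.0175% and 0.308% in replicates 2 and 1. Other marker sets differed less. In replicates 2 and 1, the endothelial marker held 5.55% and 5.33%, and Mir143 and Mir145a, known from smooth muscle, held 8.6% and 6.97%. Mir143 supplied nearly all of the latter share, at 85011 and 68864 CPM, against 1011 and 881 CPM for Mir145a. Whether Mir143 and Mir145a mark smooth muscle alone at this age was not tested. In the same order, markers of red blood cells held 0.171% and 0.116%, and those of leukocytes 0.0332% and 0.0454%. Members of either set did not move together. Mir451a had 1509 and 947 CPM, Mir144 had 103 and 120, and Mir486 had 101 and 93.2. Mir223 had 118 and 240 CPM, and Mir155 had 214 in each library. The part of these differences in the ratio of Mir652 was not tested.

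Ratios within a library need no scaling, and set Mir652 beside the markers directly. Mir652 was 0.15 times as high as Mir143, known from smooth muscle, in replicate 2 and 0.161 times in replicate 1, a mean of 0.155 ± 0.00756 (SD, n = 2). It was 0.23 times as high as the endothelial Mir126a in replicate 2 and 0.208 times in replicate 1. Against Mir143 and Mir126a the libraries differed 1.07-fold and 1.11-fold, so Mir652 kept nearly the same proportion to both.

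The proportion to other markers was less even, to differing degrees. Against the heart muscle marker Mir208a the ratio was 0.732 in replicate 2 and 0.863 in replicate 1, a 1.18-fold difference. Mir652 was 0.255 times as high as Mir208b, which lies in the myosin gene Myh7, in replicate 2 and 0.526 times in replicate 1, a 2.06-fold difference. Mir652 was above Mir451a of red blood cells in both libraries, by 8.46-fold in replicate 2 and by 11.7-fold in replicate 1. It was above Mir223 of myeloid cells by 108-fold in replicate 2 and by 46.1-fold in replicate 1. Against Mir10a the ratio was 11.5 in replicate 2 and 1.2 in replicate 1. With 2 libraries these proportions do not show which cells held the microRNA.

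On the X chromosome, Mir652 was the third most abundant of 120 listed microRNA genes. X-linked genes held 13.2% of own-strand counts in replicate 2 and 9.93% in replicate 1, and 38 of them had at least 10 counts in both libraries. Mir652 supplied 9.68% of X-linked counts in replicate 2 and 11.2% in replicate 1, a mean of 10.4% ± 1.07 (SD, n = 2). Above it were Mir322 with 56004 ± 9278 CPM and Mir351 with 28735 ± 13279 CPM, both of the Mir322-Mir503 cluster. Mir322 was 4.9 times as high as Mir652 in replicate 2 and 4.46 times in replicate 1, and Mir351 was 2.99 and 1.75 times as high in replicates 2 and 1.

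Outside the 7 genes of that cluster, Mir652 alone held 49.4% of X-linked counts in replicate 2 and 42.4% in replicate 1. The other 30 X-linked genes detected in both libraries had a median of 212 CPM and summed to 13076 CPM in replicate 2 and 15035 in replicate 1. The next of them was Mir532, in an intron of the chloride-proton exchanger gene Clcn5, with 2558 CPM in replicate 2 and 2572 in replicate 1. The level of Mir652 was 4.99 times that of Mir532 in replicate 2 and 4.31 times in replicate 1, a mean of 4.65 ± 0.481 (SD, n = 2). The spread between the libraries was small beside this distance.

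Clcn5 hosts a group of 5 listed microRNAs, Mir188, Mir362, Mir500, Mir501 and Mir532, where Tmem164 hosts 1. The 5 together reached 6087 CPM in replicate 2 and 5990 in replicate 1. Mir652 was 2.1 times as high as their sum in replicate 2 and 1.85 times in replicate 1. The other X-linked genes of over 2000 mean CPM were Mir503, with 2678 CPM in replicate 2 and 2350 in replicate 1, and Mir361, which lies in an intron of the Rab escort protein gene Chm, with 2215 CPM in replicate 2 and 2435 in replicate 1.

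**Figure D4:**
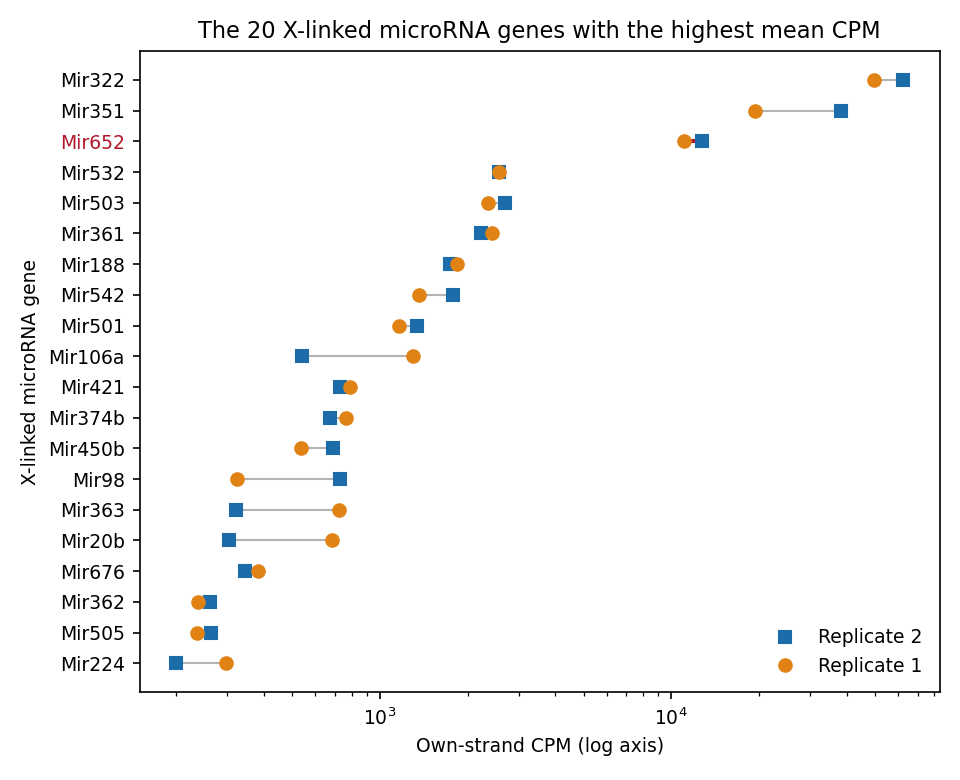
Own-strand CPM (log axis) of the 20 X-linked genes with the highest mean, in replicate 2 (squares) and replicate 1 (circles). Mir652 (red) lies between Mir351 of the Mir322-Mir503 cluster, with 28735 mean CPM, and Mir532, with 2565.

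X-linked genes went both ways between the libraries. Of 41 tested, 22 were higher in replicate 2, 12 lower and 7 did not pass, beside 30.4% higher and 31.1% lower over all tested genes. The median log2 ratio was 0.16, against -0.01 over all tested genes. The Mir322-Mir503 cluster supplied 7 of the 22 higher genes. Outside it, 15 of 34 were higher and 12 lower, with a median of 0.11. Under total counts 14 of the 41 were higher and 19 lower (7 and 19 outside the cluster), beside 66 higher and 196 lower of all 424, and the median was -0.12, against -0.29 over all tested genes. The ratio of Mir652 was above 0 under both scalings. Mir106a, Mir363 and Mir20b of the X-linked paralog of the Mir17hg cluster were lower at -0.98, -0.90 and -0.91. Mir98 of the let-7 family, in the ubiquitin ligase gene Huwe1, was higher at 1.45. The labels say that each pool mixed males and females, and the share of each sex is not given in the sources used here.

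Mir652 ranked 7 in each library among 647 listed genes that lie in an intron of a protein-coding gene on the same strand. The median of the 137 such genes detected in both libraries was 88.3 CPM. The 5 highest were Mir335 in Mest with 151298 ± 16851 CPM, Mir208b in Myh7 with 35502 ± 20457, Mir26b in the phosphatase gene Ctdsp1 with 30577 ± 40, Mir30e in Nfyc with 26887 ± 868 and Mir99b in Spaca6 with 16948 ± 1145. Mir208a was the sixth. Intronic genes together held 42.0% of counts in replicate 2 and 37.3% in replicate 1, and Mir652 supplied 3.04% and 2.97% of these in replicates 2 and 1. Its part of the intronic counts was therefore close to equal in the pools. The messenger RNA of Tmem164 was not measured, so its level cannot be set beside that of Mir652.

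Mir652 was also set beside microRNAs whose inhibition or deletion has been studied in rodent models of heart disease, a list of 18 names of which 17 are among the listed identifiers (Mir497 was not analysed here). Mir652 was the third most abundant of them. Above it were Mir21a, known from cardiac fibroblasts and fibrosis, with 19325 CPM in replicate 2 and 16323 in replicate 1, and Mir208a. Mir652 was below both in each library.

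The next member of the list was Mir92-1, studied in the growth of blood vessels after infarction, with 4450 CPM in replicate 2 and 6317 in replicate 1. It has a possible copy, Mir92-2, and may be undercounted. Mir652 was higher than Mir92-1 in both libraries. Mir15a, of the family known to restrain division of heart muscle cells after birth, had 2649 CPM in replicate 2 and 3402 in replicate 1. Its relatives Mir16-1, Mir15b, Mir16-2 and Mir195a averaged 1664, 1230, 428 and 292 CPM. Mir16-1 and Mir16-2 are possible copies of each other and may be undercounted. Mir154 of the Dlk1-Dio3 locus had 678 CPM in replicate 2 and 1954 in replicate 1.

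The Mir34 genes, of a family known as p53 targets, were low beside Mir652, with 902 CPM of Mir34c in replicate 2 and 1149 in replicate 1. Mir34a averaged 108 ± 8.02 CPM and Mir34b 42.8 ± 2.33. Mir25 averaged 472 ± 114 CPM and Mir199b, which has possible copies, 328 ± 93.9. Mir132 averaged 62.3 ± 12.8 CPM and Mir212, processed from the same transcript, 5.97 ± 1.06. The 17 genes thus spanned more than 3 orders of magnitude at this age.

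Of the other 16 genes, all of them tested, 5 were higher in replicate 2, 6 were lower and 5 did not pass, with a median log2 ratio of -0.08, against -0.01 over all tested genes and 0.48 for Mir652. The higher genes were Mir208a at 0.72, Mir21a at 0.52, Mir195a at 0.45, Mir34a at 0.43 and Mir15b at 0.15. The lower genes were Mir154 at -1.25, Mir199b at -0.32, Mir92-1 at -0.23, Mir25 at -0.22, Mir15a at -0.09 and Mir34c at -0.07. Mir16-1, Mir16-2, Mir132, Mir34b and Mir212 did not pass. Under total counts 3 of the 16 were higher and 10 lower, Mir34a did not pass, and Mir15b turned to -0.12. The list went both ways, and its 11 calls of 16 stand beside the 61.6% of all tested genes.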

How the data were processed

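MicroRNA-seq of embryonic day 10.5 mouse heart was deposited as 1 table per library (n = 2). The authors deposited raw read counts for each gene, over both strands, on the gene's own strand and on the opposite strand. The README files state mm10 alignments and GENCODE M4 gene models. The aligner and trimming were not given in the sources used here. Reads with no gene did not enter totals or tests. In replicates 2 and 1, unmapped reads were 25.5% and 26.3% of the table, reads with several places 23.5% and 23.3%, and reads outside listed genes 7.41% and 8.98%.

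Own-strand counts were used. Symbols, positions and hosts came from GENCODE M21 (also mm10), in which 1894 of 1973 identifiers matched, and sequences from RefSeq GRCm38.p6. Genes reaching 10 counts in either library were compared between the libraries by a two-sided exact binomial test (scipy 1.17.1) on TMM-scaled library sizes (edgeR 4.0.16), with Benjamini-Hochberg adjustment at 0.05 and a prior count of 0.5 in log2 ratios. The test reads counting error only. The simulated counts on which it was tried held no variation between pools, so they do not bear on such variation. Hairpins were folded with RNAfold 2.7.2. Depth was 4789068 and 4163656 own-strand gene counts in replicates 2 and 1.

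Mir652, the lists and the tests were chosen with earlier results of these data known. The genes named are Mir652, the 3 next above and below it in mean CPM, the 5 nearest in level and the 5 nearest in ratio, the 5 highest X-linked and intronic genes, the list of heart disease microRNAs, and marker genes. Other X-linked genes, Mir431 and Mir680-2 were named after their values were seen. The alternatives tried were counts over both strands, scaling by DESeq2 1.42.0 or by totals, no count filter, prior counts of 0.1 and 5, all reads as denominator, genes left out, each replicate alone and division by hairpin length.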

Additional observations from a re-analysis of the deposited data

How the results depend on the processing

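With a denominator of all reads in the tables the mean level of Mir652 was 5074 per 1000000 reads, against 11918 CPM, because that denominator also holds unmapped reads, reads with several places and reads outside genes, and without the most abundant gene it was 14059 CPM. Without genes that have a possible copy it was 13121 CPM. With each replicate left out in turn, the level ran from 11074 to 12762 CPM, the rank from 17 to 21, the share of X-linked counts from 9.68% to 11.2%, and the rank among intronic genes stayed at 7. Divided by hairpin length, which was chosen after the data were seen, the rank was 21 and the rank among intronic genes 8. Without the Mir322-Mir503 cluster the share of X-linked counts was 45.9%. The log2 ratio was 0.47 to 0.51 under the alternatives other than total counts, where it was 0.20, and it was above 0 in each. The coefficient of variation was 10.02% in CPM and 23.3% with TMM scaling. The count of genes past the test was 254 to 270, with 66 higher and 196 lower under total counts. No paired analysis was possible because there is 1 group. With 2 libraries the smallest two-sided p of an exact sign-flip test is 0.5, so depth is not the limit for Mir652 but the number of pools is.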
